A study of Mus musculus with 6 samples.

Results

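The genes described here are 6 core pluripotency transcription factors of the mouse, Pou5f1, Sox2, Nanog, Klf4, Zfp42 and Esrrb, in single-cell RNA-Seq libraries made in drops. They were chosen by name, and a record (1 alignment of 1 read) was counted for a gene when its 5′ end lay on the gene's strand within the gene, with 1 kb added on both sides. The 6 genes are set against 29069 loci, which are all groups of same-strand 5′ ends no more than 500 nt apart in these data. The study labeled the RNA of single embryonic stem cells of line V6.5 (mES) and of single embryonic fibroblasts (mEF), Globalstem:GSC-6002, from 10.5 p.c., with barcoded primers that hybridize to the poly(A) tail. Both cell types grew in Knockout DMEM with fetal bovine serum, Pen/Strep, non-essential amino acids and Glutamax, and the mES medium also held LIF, the cytokine that keeps stem cells undifferentiated in culture, and beta-mercaptoethanol. All 6 libraries are labelled with both cell types, and the authors sorted the reads by barcode into 1 mES and 1 mEF aggregate. There is therefore 1 pool per cell type, no replicate and no test between cell types.

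The mES aggregate held 750739 records at 53947 distinct 5′ positions, and the mEF aggregate held 459005 records at 25252. Read names showed 3 sequencing runs. Over the whole aggregates, 93.4% of the mES positions of run 2 and 94.5% of those of mEF were also in run 1, so runs 1 and 2 were taken as library set 1, and run 3, with 8.68% and 8.71% of its positions in them, as library set 2. Library set 2 supplied 108810 of the mES and 29681 of the mEF records, and it stood apart, because the mitochondrial chromosome and the locus with the most records together took 40.9% of its mES records against 3.15% of those in library set 1. The paper compared clusters formed from expression with the nominal cell type of the cells, so it also held cell types apart from clustering. The sources do not state whether expression was used to assign the barcodes of these pools. A difference at these genes and the assignment itself therefore cannot be told apart. Nor can fewer expressing cells, less RNA per cell and foreign transcripts under a barcode be told apart in a pool. The paper estimated such foreign transcripts from a mixture of human and mouse cells, and their part in the mEF records was not tested.

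In the early embryo these factors mark the pluripotent cells, and in culture they help to hold stem cells in a state from which every tissue can form. Pou5f1 (Oct4), a POU domain protein, and Sox2, an HMG box protein, bind DNA side by side and form the centre of the circuit, and the homeodomain protein Nanog stabilizes it. Klf4, a zinc finger protein, and Esrrb, an orphan nuclear receptor, belong to the layer that LIF and other signals act on, and Zfp42 (Rex1) is a zinc finger protein widely used as a marker of the naive state. Pou5f1, Sox2 and Klf4 are also 3 of the factors that reprogram fibroblasts to pluripotency.

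These factors bind one another's genes, so the 6 genes were searched for the factors' short motifs in the RefSeq promoters of build GRCm38.p6, from 250 bases before to 50 after each start site. All 6 genes were found, with 9 promoters among them, in a table of 32851. On either strand, the POU motif ATGCAAA lay in 4 of the 9 promoters, those of Sox2, Zfp42 and, as the same match in overlapping promoters, Nanog, and in 4.63% of all promoters. The stretches below show those 3 matches, with the motif or its reverse complement in capitals and each read 5′ to 3′ along the gene.
Sox2, chr3:34649866-34649932, plus strand: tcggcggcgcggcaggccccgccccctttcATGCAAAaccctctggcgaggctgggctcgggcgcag
Nanog, chr6:122707384-122707450, plus strand: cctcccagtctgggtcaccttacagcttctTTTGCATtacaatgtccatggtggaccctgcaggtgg
Zfp42, chr8:43307158-43307224, minus strand: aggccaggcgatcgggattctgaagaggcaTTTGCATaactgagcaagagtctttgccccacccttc

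The motif began 99 bases before the start site in Sox2, 75 bases before 1 annotated start and 151 before the other in Nanog, and 185 bases before it in Zfp42. The SOX motif CATTGT lay in 4 of the 9 promoters (both of Nanog, as the same match, and 1 each of Esrrb and Pou5f1) and in 12.6% of all promoters. In Nanog alone it lay beside the POU motif, 1 base away and on the same strand, in the bases acaatg that come 1 base after the capitals. The KLF motif GGGNGTGG lay in 4 of the 9 (both of Nanog, as the same matches, and 1 each of Zfp42 and Pou5f1) and in 17.6% of all promoters. The ESRRB motif AAGGTCA lay in 0 of 9 and in 4.72%. No match of 1 motif overlapped a match of another in these promoters. These matches are descriptions of letters and not of bound sites, and the RNA records below carry no measurement of binding. Coordinates of the records are in build mm9 and were never compared with those of the promoters.

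The 6 factor genes were read almost entirely in mES. Together they had 1288 records in mES and 14 in mEF, or 1716 against 30.5 records per 1000000 records of the aggregate (CPM), a ratio of 56.2 (95% exact interval 33.4 to 103). All 6 exceeded a 4-fold difference toward mES and all had at least 50 records over both aggregates, while 30.2% of the 4321 loci with that many records passed the same fold in this direction. The units differ, since a gene window can hold several loci. The main locus alone reached 50 records in 4 of 6 genes, and those of Zfp42 and Esrrb held 49 and 46. Moreover, the genes met this minimum through their mES records, and 50 mES records with none in mEF already give a bound of 10.2-fold, so the count of 6 is a description and does not support a difference from other loci. The median log2 ratio of mES to mEF was 4.79 over the 6 genes, with 3 counts in place of 0, against 0.10 over the loci. This median rests on the same minimum and floor, and the loci include those higher in mEF. It is therefore a description too and does not support a difference from other loci. Intervals here and below cover counting error only, and copies made by PCR are not independent molecules. Distinct 5′ positions merge copies of a molecule, but also separate molecules that begin at the same base, as barcodes were not used. Counted in this way, the 6 genes had 85 positions in mES and 4 in mEF, a ratio of 9.95 (3.75 to 37.3). The median log2 ratio was 0.90, with 3 in place of 0. By positions 2 of 6, Pou5f1 and Sox2, exceeded 4-fold, and the bounds of the genes without a mEF position could not reach it. Among the 2002 loci that also had at least 6 positions, 21.7% exceeded 4-fold toward mES in records and 4.25% in positions, and their median log2 ratio in positions was -0.10. The main loci of Nanog and Esrrb, with 4 and 5 mES positions, are not among those 2002.

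**Figure D1:**
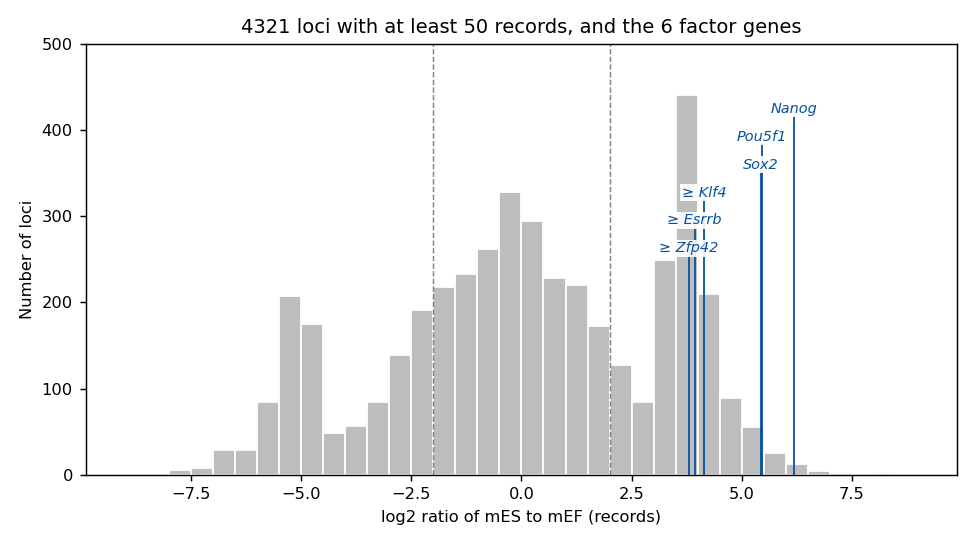
Histogram of the log2 ratio of mES to mEF in records for the 4321 loci with at least 50 records (grey bars, number of loci), with the 6 factor genes as blue lines and 4-fold differences as dashed lines. A sign ≥ marks a lower bound, where mEF had no record. All 6 genes lie to the right of the 4-fold line, from at least 3.79 (Zfp42) to 6.20 (Nanog), and the loci form a group in that range too.

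Pou5f1 was by far the most abundant of the 6 and supplied 67.3% of their mES records. Its gene spans chr17:35642977-35647722 on the plus strand of mm9. In mES it had 867 records at 47 distinct positions, which is 1155 CPM with an exact Poisson interval of 1079 to 1234 at 95%, and it had 12 records in mEF at 2 positions, 26.1 CPM (13.5 to 45.7). The ratio was 44.2 (25.2 to 85.8) in records and 11.0 (2.88 to 93.5) in positions. At the mES level, the mEF aggregate would have held 530 records. Of all 23328 loci with a mES record, the main Pou5f1 locus ranked 81 by records and 68 by positions. Thus the gene stood near the top of the mES aggregate on both scales. The highest mapping score, which marks a single placement in the genome, was given to 95.7% of them in mES.

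The 12 mEF records of Pou5f1 were not spread as those of mES were. Of them, 11 began at a single position, 412 nt before the gene end, with 7 in run 1 and 4 in run 2, and the other began 1674 nt before it. Neither position held a mES record. In mES the position with the most records held 107, or 12.3%.

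Sox2, the partner of Pou5f1, is a gene of 1 exon at chr3:34548927-34551382 on the plus strand. It had 71 mES records, 94.6 CPM (73.9 to 119), at 10 positions, and 1 mEF record, 2.18 CPM (0.0552 to 12.1). The ratio was 43.4 with an interval of 7.54 to 1738 in records, and 4.68 (0.666 to 203) in positions, where the interval includes equal levels. The noncoding gene Sox2ot overlaps Sox2 on the same strand, so reads of these genes cannot be told apart here. All its records had the highest score. At 7.10 records per position in mES, Sox2 had the fewest records per position of the 6.

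Nanog, at chr6:122657507-122664651 on the plus strand, had 120 mES records, 160 CPM (133 to 191), and 1 mEF record, a ratio of 73.4 (12.9 to 2922). It was second to Pou5f1 in records but had the fewest positions of the 6. Its 120 records began at 6 positions, 20.0 records to each, and the first of these, 223 nt before the gene end, held 68 or 56.7% of them. In positions the ratio of mES to mEF was 2.81 (0.341 to 129), which does not set the cell types apart. The highest score was found for 109 of the 120 records, at 3 positions, while the 9 records at 906 and 939 nt from the gene end had a score of 0 and the 2 at 200 nt a score of 3. Reads with a score of 0 were listed at a median of 8 places in these files, and those with a score of 3 at 2 places.

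Klf4, Zfp42 and Esrrb had no mEF record, for which the exact upper limit is 8.04 CPM. The floor of 3 counts in mEF is 6.54 CPM. Klf4, at chr4:55540009-55545347 on the minus strand, had 87 mES records, 116 CPM (92.8 to 143), at 7 positions, 17.7-fold above that floor (exact lower limit of the ratio 14.1). Esrrb, at chr12:87702000-87863000 on the plus strand, a window given in whole kilobases, had 75 records, 99.9 CPM (78.6 to 125), at 7 positions, 15.3-fold above the floor (exact lower limit 12.1). Zfp42, at chr8:44380421-44392363 on the minus strand, had 68 records, 90.6 CPM (70.3 to 115), at 8 positions, 13.9-fold above the floor (exact lower limit 11.0). Equal levels would have given 53.2, 45.9 and 41.6 mEF records for Klf4, Esrrb and Zfp42. In positions the bounds were 1.09, 1.09 and 1.25, with exact lower limits of 0.675, 0.675 and 0.799. The mEF aggregate is thus too shallow in positions to show a difference of 4-fold at these 3 genes. Without Pou5f1, the other 5 genes together had 421 mES records against 2 in mEF, a ratio of 129 (35.4 to 1066), and 38 positions against 2, a ratio of 8.89 (2.30 to 76.1).

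**Figure D2:**
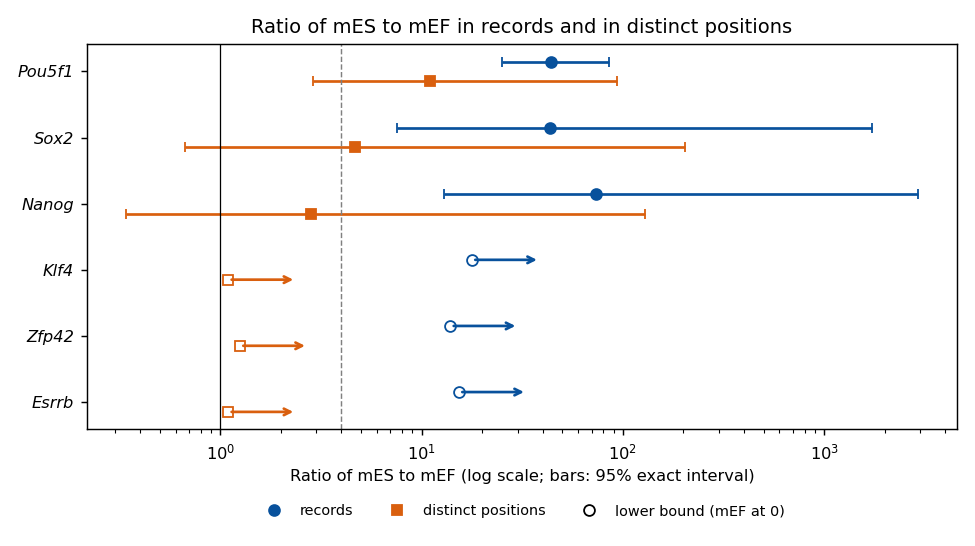
Ratio of mES to mEF for each gene in records (blue circles) and in distinct 5′ positions (orange squares) on a log axis, with 95% exact intervals and 4-fold dashed. Open symbols with arrows are lower bounds, for genes at 0 in mEF. All blue symbols lie beyond 4-fold, while among the orange ones only Pou5f1 and Sox2 do and only the Pou5f1 interval excludes equal levels.

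Levels were compared between genes per kb of the longest coding transcript in GENCODE M21, of which only lengths were used. Pou5f1 stood at 848 CPM per kb (792 to 906) in mES, above all others. Nanog followed at 72.3 (59.9 to 86.4), Zfp42 at 49.3 (38.3 to 62.5), Sox2 at 46.0 (35.9 to 58.0), Klf4 at 38.3 (30.6 to 47.2) and Esrrb at 23.2 CPM per kb (18.3 to 29.1). Intervals overlapped between neighbours from Nanog to Klf4 but not between Pou5f1 and Nanog or Klf4 and Esrrb. Reads primed at the poly(A) tail are not expected to grow with transcript length, and in CPM without length Klf4 and Esrrb came before Sox2 and Zfp42. The number of positions gave yet another order, with Pou5f1 at 47, Sox2 at 10, Zfp42 at 8, Klf4 and Esrrb at 7 and Nanog at 6. Pou5f1 was first in each order, while the place of the other 5 depended on the scale.

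The next question is how stable these levels were between library sets, which were sequenced with alignments of usually 35 nt in set 1 and 45 nt in set 2. All 6 genes had mES records in both sets, but in set 2 Nanog had only 1, with a mapping score of 0. Of the 2 Esrrb records in set 2, 1 was a second copy of the same alignment. Pou5f1 had 1272, 1298 and 414 CPM in mES in runs 1, 2 and 3, and 8, 4 and 0 records in mEF. Its level in library set 1, 1281 CPM (1194 to 1371), lay above that in set 2, 414 CPM (302 to 553). Sox2 had 88.9, 93.4 and 119 CPM in the 3 runs in mES, and its single mEF record was in run 3. Klf4 had 121, 103 and 119 CPM, and Zfp42 had 84.4, 118 and 64.3 CPM. For these 3 genes the intervals of the library sets overlapped. However, 5 of the 13 Sox2 records in set 2 were second copies. Of the 7 Zfp42 records there, 6 began 11895 nt before the gene end, and 3 of those were second copies.

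In records, Nanog and Esrrb differed more between the sets. Nanog had 151, 261 and 9.19 CPM in runs 1, 2 and 3, or 185 CPM (154 to 222) in library set 1 and 1 record, 9.19 CPM (0.233 to 51.2), in set 2. Esrrb had 135, 68.8 and 18.4 CPM, or 114 CPM (89.1 to 143) in set 1 and 18.4 CPM (2.23 to 66.4) in set 2. For both genes, as for Pou5f1, the intervals of the sets did not overlap, but they treat copies made by PCR as independent. Most Nanog records of set 1 lay at 2 positions, with 68 and 40 records. In positions Nanog had 5 in set 1 and 1 in set 2, Esrrb 6 and 1, and Pou5f1 41 and 9. Those of Nanog and Esrrb are too few to compare the sets. Totals that leave out the mitochondrial chromosome and the locus with the most records gave Pou5f1 1322 and 699 CPM in sets 1 and 2, Nanog 191 and 15.5, and Esrrb 117 and 31.1. On these totals Sox2 had 93.3 and 202 CPM, Klf4 119 and 202, and Zfp42 98.1 and 109. The part of library composition in these differences was not tested further. In mEF, set 2 is so shallow that 3 counts are 101 CPM. The exact upper limit for a gene without a record there is 124 CPM, so within set 2 the ratios are weakly bounded. The ratio of 43.4 for Sox2 has its only mEF record in set 2. Within set 1 the ratios were 45.8 for Pou5f1 (26.1 to 89.0) and 79.6 for Nanog (14.0 to 3170). With 3 counts in place of 0, those of Sox2, Klf4, Zfp42 and Esrrb were 12.9, 16.5, 13.6 and 16.3. Their exact lower limits were 10.2, 13.1, 10.7 and 12.9.

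**Figure D3:**
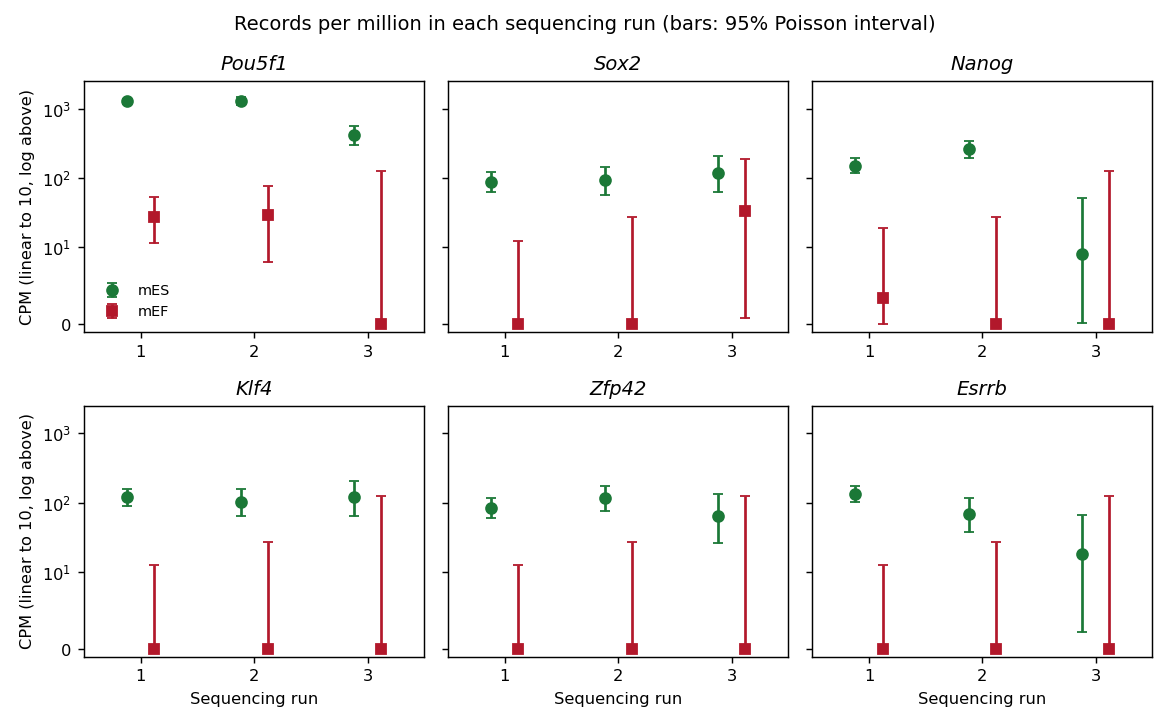
CPM of each gene in mES (green circles) and mEF (red squares) in sequencing runs 1, 2 and 3, with 95% exact Poisson intervals, on an axis that is linear to 10 and logarithmic above. In runs 1 and 2 the mES and mEF intervals are separate for all 6 genes. In run 3 they overlap for all genes but Pou5f1, and the mES levels of Nanog and Esrrb there are 9.19 and 18.4 CPM.

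The sharing of positions by which the runs were put into sets held at these genes too. Of the 62 mES positions of the 6 genes in run 2, 60 were also found in run 1, which had 67. Of the 19 positions in run 3, 3 were found in set 1, all of them at Pou5f1. No position was shared between mES and mEF, but mEF had only 4 positions against 85 in mES. The share over all loci was not computed, so this does not set the 6 genes apart.

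Records of these genes began close to the gene end, as reads primed from the poly(A) tail do. Within 1 kb of the gene end, on either side, lay 1200 of the 1288 mES records, 93.2% (exact binomial interval 91.6 to 94.5), and 80 of the 85 positions. For Pou5f1 the share was 97.3%, and its most used positions, 179, 95, 144, 100 and 175 nt before the end, held 107, 88, 69, 52 and 49 records. In the longest coding transcript, 836 of 867 records lay within the length of the last exon (485 nt) and 702, or 81.0%, within the length of the 3′ untranslated region (221 nt). A further 23 records, 4193 nt from the end, lay near the start of the gene at a single position, and all had the highest score. No record of the 6 genes had a span longer than its read, as an alignment across an intron would.

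Sox2 records began 44 to 1034 nt before the gene end, with 25 at 110 nt, 18 at 152 nt and, from run 3 alone, 10 at 130 nt. Of those 10, 5 were second copies of the same alignment in the list. All 71 lay within the length of the 3′ untranslated region. In mEF the 1 record began at 49 nt. The mES and mEF records of Sox2 therefore lay at the same end of the gene but at different bases.

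Nanog records were the most concentrated, with 68 at 223 nt and 40 at 230 nt before the gene end. Its mEF record began at 1172 nt. Klf4 had 43.7% (33.1 to 54.7) of its records within 1 kb of the end, as 49 of 87 began at a single position 1034 nt before it. In positions it had 6 of 7 within 1 kb, 85.7%, the same share as Esrrb and near the 87.5% of Zfp42. All 87 lay within the length of the last exon, 1158 nt. At Klf4, run 3 had positions of its own, with 7 records at 987 nt and 5 at 606 nt.

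Zfp42 records were spread evenly over a few positions, with 14 each at 388 and 474 nt and 13 at 525 nt before the gene end. Another 13 began past the end, in the added 1 kb (distance -763 nt), and 6 from run 3 began 11895 nt before it, near the start of the gene. Esrrb had 22 records at 602 nt, 11 at 606 nt and 10 at 519 nt before the end of its rounded window, 6 at 48200 nt before it, and 23 at a position past it (distance -522 nt). Without the added 1 kb the bounds toward mES at 3 counts were 11.2 for Zfp42 and 10.6 for Esrrb, with exact lower limits of 8.81 and 8.32. Hence a part of the records of both genes depended on where the gene is taken to end.

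**Figure D4:**
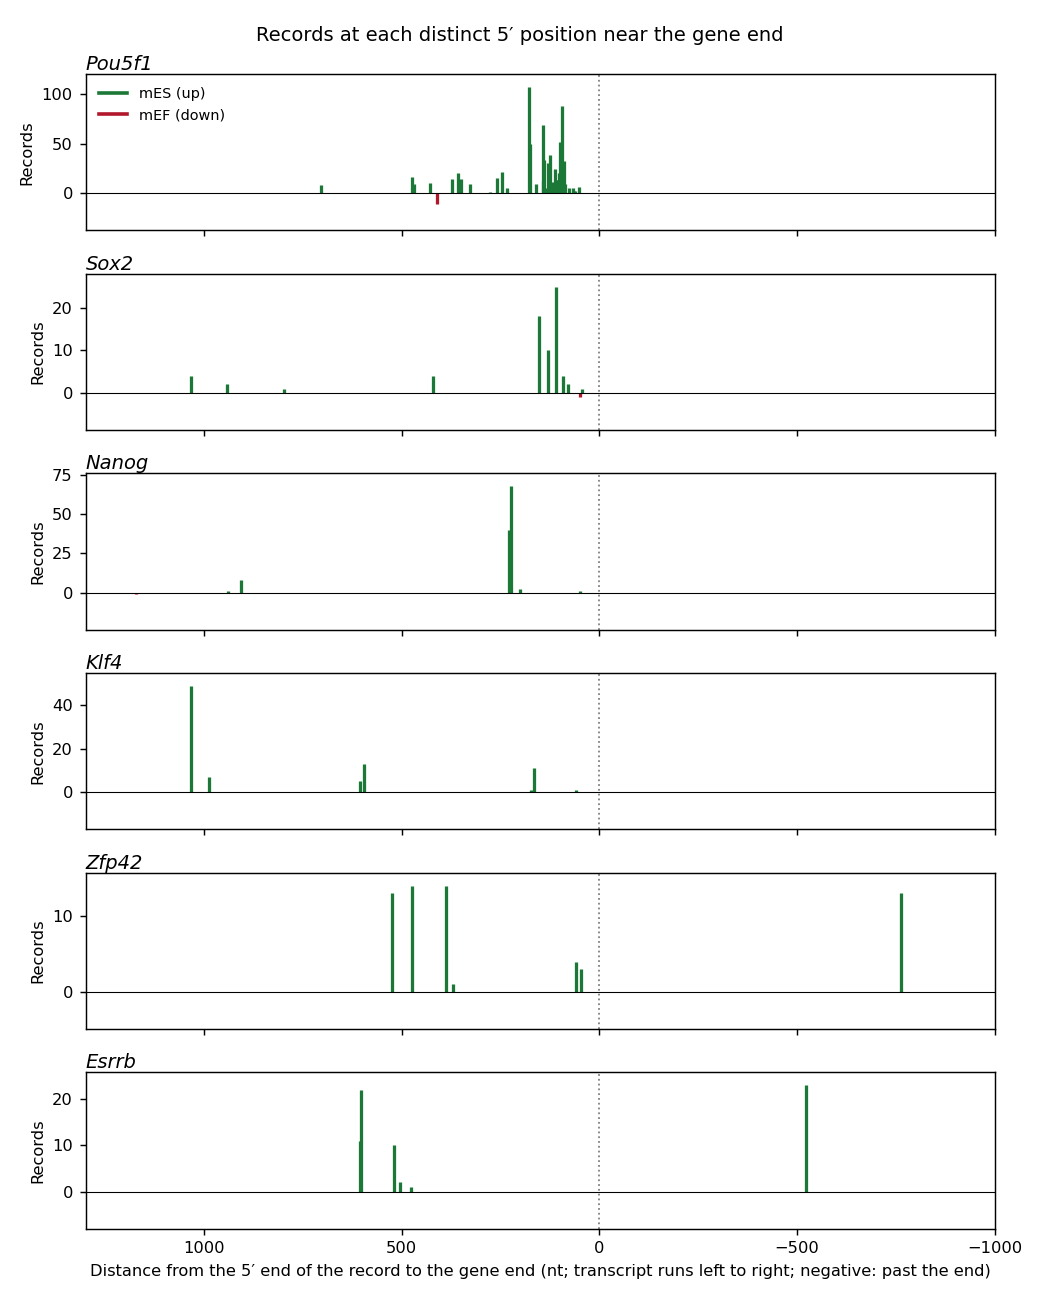
Records at each distinct 5′ position by distance to the gene end (nt, the transcript running left to right, 0 at the dotted line and negative past the end), with mES upward in green and mEF downward in red on a linear axis that differs between genes. Pou5f1 shows a dense group of positions within 200 nt of the end, while each of the other genes shows a few isolated ones. Positions farther from the end, among them those at 4193 nt in Pou5f1, 11895 nt in Zfp42 and 48200 nt in Esrrb, lie outside the axis.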

How the data were processed

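Per the labels, single-cell cDNA primed at the poly(A) tail was sequenced in 6 libraries of mixed mES and mEF. The submitters' processing notes name TopHat and build mm9, and the version is not given in the sources used here. The authors assigned barcodes to a cell type, pooled the reads of each type and deposited each pool as alignments with start, end, strand, read name and a mapping score, which takes 4 values. The deposited barcode list was not used. From these, 5′ ends were counted in the 6 gene windows on the gene's strand, per 1000000 records (CPM), with exact Poisson and conditional binomial intervals at 95%, and with 3 counts in place of 0 for a bound. The gene windows equal the RefSeq gene lengths of GRCm38 at 4 of 6 genes. All 6 genes are named. The members and lists were chosen with earlier results of these data known. Lists of other pluripotency genes and of mEF markers need an mm9 annotation and were not analysed here. At 3 counts the floor is 4.00 CPM for mES and 6.54 CPM for mEF. The steps were tested on simulated data. Alternatives were distinct positions, the highest mapping score, no added 1 kb, both strands, other totals, second copies dropped and each library set. Python 3.11.15, numpy 2.4.6, pandas 2.3.3, scipy 1.17.1 and matplotlib 3.10.9 were used.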

Additional observations from a re-analysis of the deposited data

Results flagged for a closer look

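Records on the strand opposite to the gene, which enter no comparison above, were found in mES within the windows of Nanog and Esrrb, and no such record was found in mEF in any of the 6 windows. In Nanog there were 38 at 8 positions, all between 867 and 960 nt from the gene end and all with a mapping score of 0 or 1, the scores of reads listed at a median of 8 and 3 places. The sense records of Nanog with a score of 0, at 906 and 939 nt, lay in the same stretch. In Esrrb there were 17 at 2 positions, 8 records at 89842 nt and 9 at 67682 nt before the end of the window, all with the highest score. Their source was not tested.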

How the results depend on the processing

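Of the recomputed ratios, 41 stayed within the spread given by their interval and 11 moved, of which none turned to the mEF side, although a bound under 1 gives no direction. Some of the 41 could not move, since several genes had no record in the added 1 kb or on the opposite strand. Where mEF had no record the interval has no upper limit, so such ratios could move only downward. With distinct positions, levels per 1000000 positions were 871, 185, 111, 148 and 130 in mES for Pou5f1, Sox2, Nanog, Zfp42 and Esrrb, and 79.2, 39.6 and 39.6 in mEF for Pou5f1, Sox2 and Nanog. The ratios were 11.0 for Pou5f1, 4.68 for Sox2 and 2.81 for Nanog, and 2 genes exceeded 4-fold. With 3 in place of 0, the ratios of Klf4, Zfp42 and Esrrb were 1.09, 1.25 and 1.09, with exact lower limits of 0.675, 0.799 and 0.675. With library set 2 only, the ratio was 3.55 (0.533 to 151) for Sox2. With 3 counts in place of 0, those of Pou5f1, Klf4 and Zfp42 in set 2 were 4.09, 1.18 and 0.636, with exact lower limits of 3.19, 0.831 and 0.393. Nanog and Esrrb were under the floor in both cell types there, and 0 genes reached 50 records and 4-fold, as fewer records were left. Without the added 1 kb the Esrrb bound was 10.6. The number of genes over 4-fold was 6 at 2-fold and 8-fold too and under each other alternative run. The share of loci over 4-fold toward mES was 32.8% at a minimum of 10 records and 11.3% at 200, and with at least 6 positions 21.7% in records and 4.25% in positions. The share of records near the gene end was 82.4% within 500 nt and 97.3% within 2 kb. Apart from the smaller number of records or positions, the cause was not tested. The minimum of 6 positions, the fold in positions of these loci and the totals without the densest locus were chosen after seeing the data.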
